A study of Mus musculus with 16 samples.

Results

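Hox genes encode homeodomain transcription factors that give cells their position along the body axis. In the mouse they lie in 4 clusters, HoxA to HoxD, in which the order of the genes on the chromosome follows the order of their expression along the body, and genes at the same place in different clusters form paralogue groups. The Polycomb proteins, which place trimethylation on lysine 27 of histone H3 (H3K27me3), keep Hox genes silent, and the Trithorax proteins, linked to trimethylation on lysine 4 (H3K4me3), maintain active ones, so that a cluster often carries H3K4me3 on the side of its anterior genes and H3K27me3 on the side of its posterior genes. Trimethylation on lysine 9 (H3K9me3) is best known from constitutive heterochromatin. Cells of the skin keep a Hox pattern that reflects where on the body they lie, and Hoxc13 is needed for hair.

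The genes described here are the 38 Hox genes of a given list, out of 22367 protein-coding genes on the autosomes and sex chromosomes in the GENCODE vM1 annotation of the mm9 mouse genome. HoxA and HoxB contributed 10 genes each, and HoxC and HoxD 9 each. By paralogue group, 11 belonged to groups 1 to 4, 11 to groups 5 to 8 and 16 to groups 9 to 13. One symbol, Hoxa3, stood for a pair of annotated gene IDs, which were counted as 1 gene. A gene was counted as carrying a mark when a peak of the list lay within 3000 bp of its annotated start.

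ChIP-seq peaks for the 3 marks had been called in 4 cell populations sorted from the skin of male wild-type CD1 x FVB mice. The study's methods say that mice of both sexes served in most of its analyses and give no sex for ChIP-seq. EA-HFSCs are CD34+/α6-integrin+ hair follicle stem cells (HFSCs) of the bulge in early anagen, the growth phase, at postnatal days (PD) 22 to 25, when they proliferate. LC-HFSCs are the same sorted cells in late catagen, the regression phase, between PD38 and PD44, a time of quiescence. The non-HFSC populations, non-EA-HFSCs and their late catagen counterpart non-LC-HFSCs, are the CD34-/α6-integrin+ cells sorted at the same ages, which the study describes as mainly epidermis and lower outer root sheath and which are therefore a mixture. Cells were pooled from many mice, nuclei were digested with micrococcal nuclease to single nucleosomes, and the reads of independent experiments were joined before peaks were called against IgG of the same population. The 4 IgG samples have no list, and each population and mark is represented by 1 list. No difference between populations therefore has a replicate check, no test between them was possible, and every comparison below is a description of these lists. A peak states where reads passed a threshold, not how much of the mark was there. The score given with it is 10 times minus log10 of its p-value and depends on read number and background. Scores of different lists are printed together below without being read as differences in the mark. A fixed score limit does not cut the lists alike, since the highest H3K27me3 score was 567.59 in LC-HFSCs and 3220.76 in EA-HFSCs.

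The lists held 14718 to 24498 peaks for H3K4me3, 1909 to 25534 for H3K27me3 and 1414 to 42277 for H3K9me3, and the lowest number of each mark came from LC-HFSCs. Of 11 genes fixed as markers of bulge HFSCs, 10 carried H3K4me3 in each HFSC population, 9 in non-EA-HFSCs and 8 in non-LC-HFSCs. The start of Cd34 carried it only in the 2 HFSC populations and H3K27me3 only in the other 2, and Itga6, which encodes the α6-integrin of the sort, had a peak in none of the 12 lists. Of 4 suprabasal epidermis markers, 2 carried H3K4me3 in each HFSC population and 3 in each non-HFSC population. None of the 4 leukocyte markers carried it in any population, whereas 3 or 4 of the 5 dermal fibroblast markers, 1 or 2 of the 4 melanocyte markers and 1 of the 3 endothelial markers did. The endothelial one, Kdr, also carried H3K27me3 in all 4 populations. Over all protein-coding genes, H3K4me3 lay at 53.9 to 60.4%, depending on the population. The part of other cell types in the peaks described below was not tested.

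The 4 genes of paralogue group 13 stand at the posterior end of their clusters. Hoxc13 carried H3K4me3 in all 4 populations, and Hoxa13, Hoxb13 and Hoxd13 carried it in none. The 250 bases upstream of each annotated start are shown because they let the sequence before the start be compared within this single group. They were read from mm9 at chr6:52210875-52211124 on the minus strand for Hoxa13, chr11:96055380-96055629 on the plus strand for Hoxb13, chr15:102751284-102751533 on the plus strand for Hoxc13 and chr2:74506117-74506366 on the plus strand for Hoxd13. Capitals mark CG dinucleotides, the sites of DNA methylation, whose density is high in CpG islands.
Hoxa13: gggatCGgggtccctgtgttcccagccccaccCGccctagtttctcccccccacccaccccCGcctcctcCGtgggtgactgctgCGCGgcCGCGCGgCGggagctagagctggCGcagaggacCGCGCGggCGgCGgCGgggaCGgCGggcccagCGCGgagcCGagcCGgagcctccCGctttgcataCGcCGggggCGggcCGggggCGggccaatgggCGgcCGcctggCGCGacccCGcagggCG
Hoxb13: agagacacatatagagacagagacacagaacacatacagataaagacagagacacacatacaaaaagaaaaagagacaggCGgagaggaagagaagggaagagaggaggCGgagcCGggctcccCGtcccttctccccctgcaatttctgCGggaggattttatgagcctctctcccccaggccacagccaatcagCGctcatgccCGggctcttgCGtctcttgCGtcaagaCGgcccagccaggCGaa
Hoxc13: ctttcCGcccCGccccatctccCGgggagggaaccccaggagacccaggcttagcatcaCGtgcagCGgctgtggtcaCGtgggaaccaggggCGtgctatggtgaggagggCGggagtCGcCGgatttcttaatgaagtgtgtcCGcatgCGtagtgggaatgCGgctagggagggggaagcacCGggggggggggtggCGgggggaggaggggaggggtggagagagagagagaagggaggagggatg
Hoxd13: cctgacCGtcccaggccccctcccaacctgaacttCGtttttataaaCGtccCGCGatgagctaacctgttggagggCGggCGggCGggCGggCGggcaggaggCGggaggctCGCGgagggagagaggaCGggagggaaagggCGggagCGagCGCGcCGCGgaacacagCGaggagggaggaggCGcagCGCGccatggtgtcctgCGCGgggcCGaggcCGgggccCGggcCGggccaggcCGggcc

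These stretches held 35 CG dinucleotides for Hoxa13, 31 for Hoxd13, 15 for Hoxc13 and 11 for Hoxb13. The median over the 38 Hox genes was 10.5, against 8 over the 22362 protein-coding genes with a complete sequence there, and the Hox genes ranged from 2 at Hoxa2 to 41 at Hoxa4. Hoxc13, with H3K4me3 in every population, thus had fewer CG dinucleotides than Hoxa13 and Hoxd13 but more than Hoxb13, and these others had H3K4me3 in none. The annotated start of Hoxd13 is its first coding base, so the stretch shown for it need not be its promoter.

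The clusters also hold microRNA genes, and these mature sequences are shown because they mark positions inside the clusters other than the coding starts. Some of them lie within 3000 bp of a Hox start, so a peak on them can be the one counted for that gene. They are RefSeq sequences from a table of the GRCm38.p6 assembly, placed on mm9 here by an exact match. Capitals mark the seed, bases 2 to 8, which pairs with target messages.
miR-10a-5p: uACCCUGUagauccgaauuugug
miR-10b-5p: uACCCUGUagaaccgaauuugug
miR-196a-5p: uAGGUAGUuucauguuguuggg
miR-196b-5p: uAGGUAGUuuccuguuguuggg
miR-615-3p: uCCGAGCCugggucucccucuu

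miR-10a-5p and miR-10b-5p share the seed ACCCUGU, miR-196a-5p and miR-196b-5p share AGGUAGU, and miR-615-3p has CCGAGCC. The locus of miR-10a-5p, inside the annotated Hoxb4 gene at chr11:96178500-96178522, lay under H3K4me3 in EA-HFSCs and non-EA-HFSCs and under no peak in LC-HFSCs or non-LC-HFSCs, although a peak of the latter began at 96178528, just past it. That of miR-10b-5p, inside Hoxd3 and Hoxd4 at chr2:74564131-74564153, lay instead under H3K27me3 in all populations but LC-HFSCs and had no H3K4me3 on it, although an H3K4me3 peak of EA-HFSCs with a score of 277.6 began at 74564414, a short way past it. The 3 loci of the miR-196 seed also had H3K27me3 in EA-HFSCs, at chr6:52180128-52180149 inside Hoxa9, at chr11:96126501-96126522 between Hoxb13 and Hoxb9, and at chr15:102803796-102803817 between Hoxc10 and Hoxc9. The HoxC copy had it in EA-HFSCs only, the HoxA and HoxB copies also in both non-HFSC populations, and none had it in LC-HFSCs. The HoxA copy also lay under a narrow H3K4me3 peak in non-EA-HFSCs, with a score of 63.27. The miR-615-3p locus, inside Hoxc5 at chr15:102845400-102845421, lay under H3K4me3 in all 4 populations and under H3K27me3 in none. H3K9me3 covered the miR-10b-5p locus and the 3 miR-196 loci in EA-HFSCs and no microRNA locus in the other populations.

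H3K4me3 lay at 27 of the 38 Hox starts in EA-HFSCs (60.4% of all protein-coding genes), 18 in LC-HFSCs (53.9% of all genes), 26 in non-EA-HFSCs (59.6% of all genes) and 22 in non-LC-HFSCs (56.6% of all genes). These counts, 71.1%, 47.4%, 68.4% and 57.9% of the 38, were above the share of all genes in the 2 anagen populations, near it in non-LC-HFSCs and below it in LC-HFSCs. H3K27me3 lay at 24 Hox starts in EA-HFSCs (13.0% of all genes), 8 in LC-HFSCs (3.39% of all genes), 19 in non-EA-HFSCs (15.6% of all genes) and 19 in non-LC-HFSCs (11.9% of all genes). The Hox genes thus exceeded the background for H3K27me3 in every population, and LC-HFSCs had the fewest. H3K9me3 lay at 29 Hox starts in EA-HFSCs (45.2% of all genes), at none in LC-HFSCs (0.295% of all genes), at 3 in non-EA-HFSCs (2.80% of all genes) and at 14 in non-LC-HFSCs (11.6% of all genes). The EA-HFSC list of this mark was the longest of the 12, and its share of all genes was far from that of the other 3 populations.

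**Figure D1:**
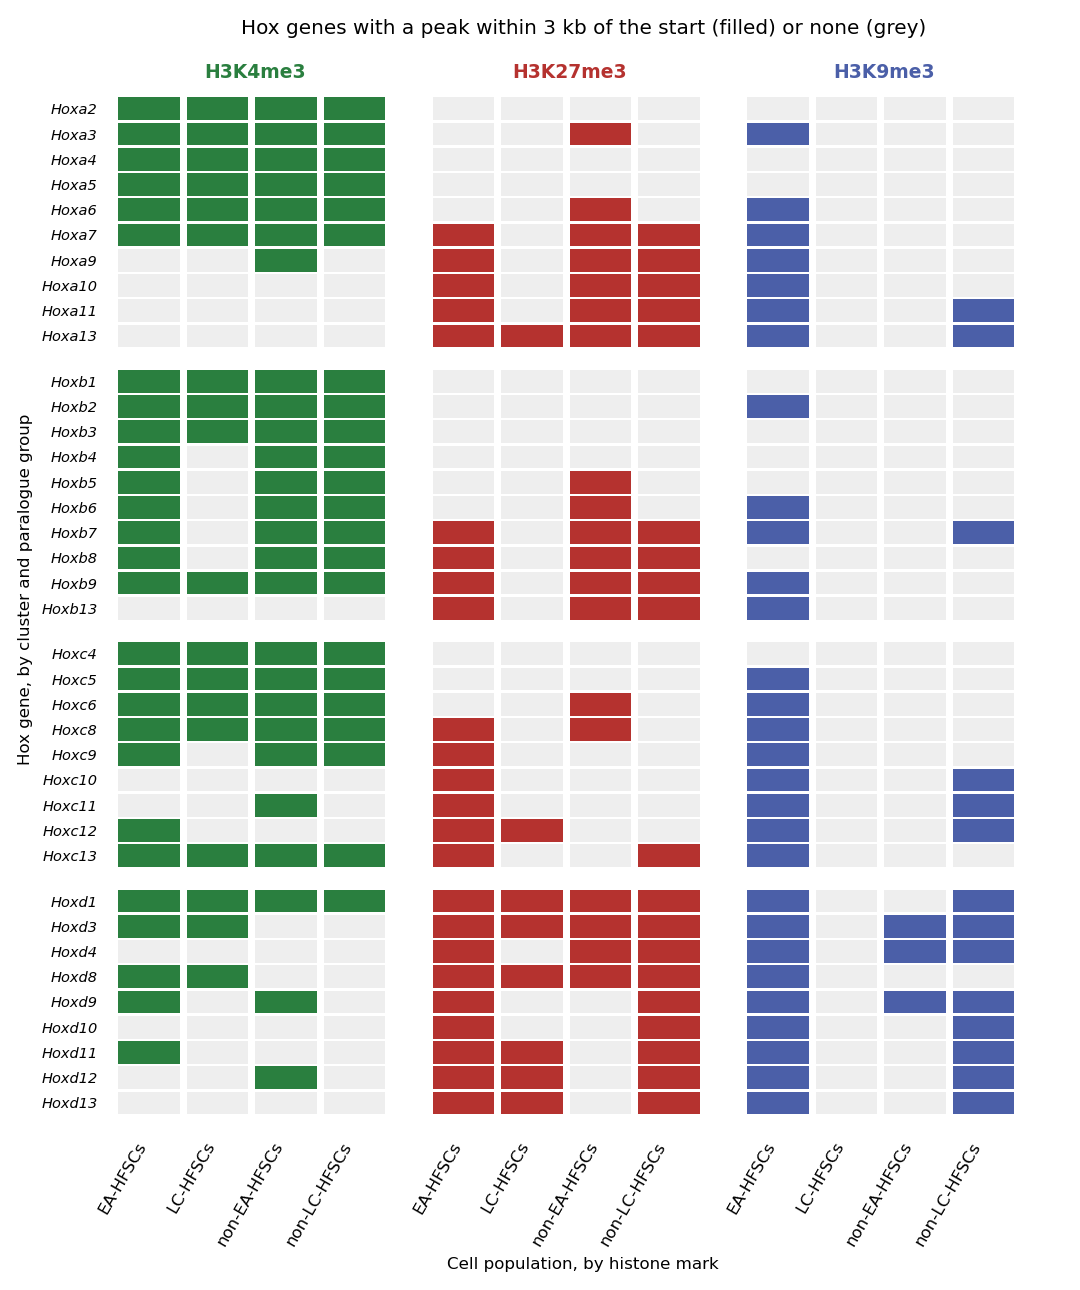
Presence of a peak within 3000 bp of the start of each of 38 Hox genes (rows, grouped by cluster and ordered by paralogue group) in each cell population (columns), for H3K4me3 (green), H3K27me3 (red) and H3K9me3 (blue), with grey for no peak. H3K4me3 fills the anterior rows of HoxA, HoxB and HoxC, H3K27me3 fills the posterior rows and all of HoxD in EA-HFSCs, and the LC-HFSC columns hold 18, 8 and 0 filled cells.

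In EA-HFSCs the anterior and middle groups carried H3K4me3 almost without gaps. It lay at 10 of the 11 genes of groups 1 to 4 and at all 11 of groups 5 to 8, but at 6 of the 16 genes of groups 9 to 13. H3K27me3 had the opposite order in EA-HFSCs, with 3 of 11, 5 of 11 and all 16. In LC-HFSCs H3K4me3 was at 9, 7 and 2 genes of these groups and H3K27me3 at 2, 1 and 5. In non-EA-HFSCs H3K27me3 was most frequent in the middle groups, with 4, 9 and 6 genes, and in non-LC-HFSCs in the posterior groups, with 3, 4 and 12. The single anterior gene without H3K4me3 in EA-HFSCs was Hoxd4, which had it at its annotated start in no population and at its first coding base in EA-HFSCs.

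**Figure D2:**
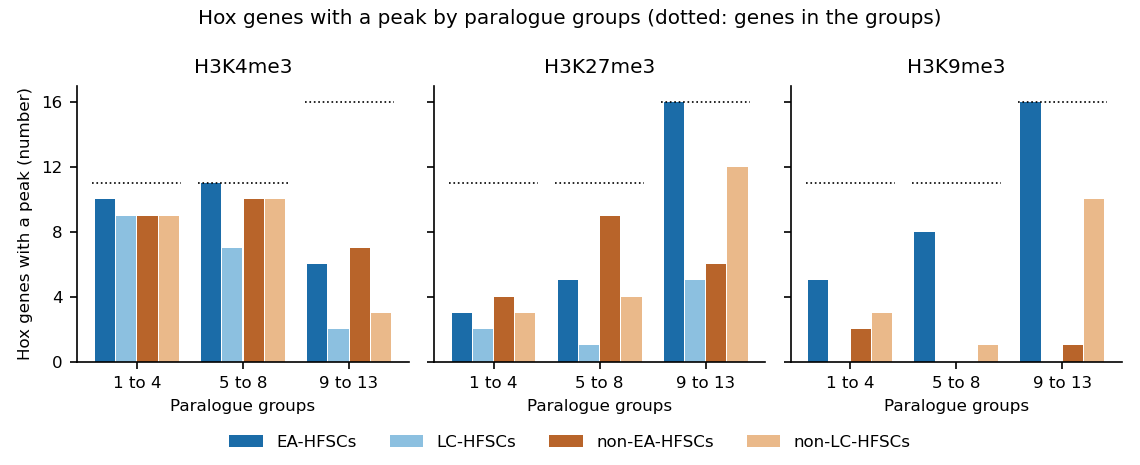
Number of Hox genes with a peak within 3000 bp of the start (vertical axis) in paralogue groups 1 to 4, 5 to 8 and 9 to 13 (horizontal axis) for each mark, with 1 bar per cell population and a dotted line at the number of genes in the groups. For H3K27me3 and H3K9me3 the EA-HFSC bar reaches all 16 genes of groups 9 to 13, while for H3K4me3 it reaches all 11 genes of groups 5 to 8.

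Across the populations, 16 Hox genes carried H3K4me3 in all 4 lists. They were Hoxa2 to Hoxa7, Hoxb1, Hoxb2, Hoxb3, Hoxb9, Hoxc4, Hoxc5, Hoxc6, Hoxc8, Hoxc13 and Hoxd1. Another 8, namely Hoxa10, Hoxa11, Hoxa13, Hoxb13, Hoxc10, Hoxd4, Hoxd10 and Hoxd13, had it in no list. At a pair of genes, Hoxd3 and Hoxd8, the HFSCs differed from the non-HFSCs at both stages, with H3K4me3 in EA-HFSCs and LC-HFSCs and in neither non-HFSC population. Where several peaks lay in the window, the highest score is given. In EA-HFSCs the Hoxd8 peak scored 628.56, and in LC-HFSCs 97.89, and the Hoxd3 peak scored 193.43 and 87.51, so both LC-HFSC peaks were lost when a score of at least 100 was required. The Hoxd3 peak lay at the upstream start of the gene, 32083 bp from its first coding base, and not at the coding start. Further genes had H3K4me3 in a single population. Hoxc12 and Hoxd11 had H3K4me3 in EA-HFSCs alone, with scores of 53.08 and 85.39, and Hoxa9, Hoxc11 and Hoxd12 in non-EA-HFSCs alone, with scores of 63.27, 56.05 and 112.3. Hoxd9 had it in both anagen populations, with 213.36 in EA-HFSCs and 142.26 in non-EA-HFSCs, and in neither catagen population.

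From EA-HFSCs to LC-HFSCs, 18 of 27 Hox genes kept H3K4me3, against 89.0% of all genes with the mark. The 9 that did not were Hoxb4, Hoxb5, Hoxb6, Hoxb7, Hoxb8, Hoxc9, Hoxc12, Hoxd9 and Hoxd11, and none gained it. Neighbouring genes of HoxB made up 5 of them. From non-EA-HFSCs to non-LC-HFSCs, 22 of 26 kept it (94.3% of all genes), and the 4 that did not were Hoxa9, Hoxc11, Hoxd9 and Hoxd12. Hoxb4 to Hoxb8 and Hoxc9 thus lacked a peak in LC-HFSCs alone. At the first coding base, Hoxc9 did have a peak in LC-HFSCs. For Hoxb4, whose first coding base is 96180084, the window of 3000 bp only touched the edge of the peak over the Hoxb3 start, which began at 96183082. In EA-HFSCs Hoxb3 to Hoxb8 all shared 1 peak, 58.66 kb wide at chr11:96138661-96197320, which was the widest H3K4me3 peak of that list but ranked 18044 of 21482 by score, at 85.05. In non-EA-HFSCs the same stretch was held by separate peaks with scores of 2000 at Hoxb4, 1807.04 at Hoxb5 and 3100 at Hoxb6, Hoxb7 and Hoxb8, and in non-LC-HFSCs by peaks with scores of 2019.77 at Hoxb4, 1147.41 at Hoxb5, 2170.8 at Hoxb6 and 3100 at Hoxb7 and Hoxb8. In LC-HFSCs no H3K4me3 peak was called between 96135243, the end of the peak at Hoxb9, and 96183082, the start of the peak at Hoxb3.

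The direction of the H3K4me3 count in HFSCs depended on how many peaks were kept. With the 14718 highest-scoring peaks of each H3K4me3 list, the length of the LC-HFSC list, EA-HFSCs had 14 Hox genes with the mark and LC-HFSCs 18. Of the 14, 13 were then kept, against 94.2% of all genes under this setting, Hoxd9 was lost, and 5 were gained. The 13 genes dropped from EA-HFSCs included Hoxb3 to Hoxb8, which share the wide HoxB peak, and Hoxa3, Hoxa5, Hoxa6 and Hoxa7, which share a HoxA peak of 27.862 kb with a score of 140.7. When only peaks scoring 100 or more were kept, the counts were 19 and 13.

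H3K27me3 was kept at 8 of 24 Hox genes from EA-HFSCs to LC-HFSCs (25.5% of all genes with the mark) and gained at none. The 8 were Hoxa13, Hoxc12, Hoxd1, Hoxd3, Hoxd8, Hoxd11, Hoxd12 and Hoxd13. The remaining 16 comprised 4 genes of HoxA, 4 of HoxB, 5 of HoxC and 3 of HoxD, and no HoxB gene kept it. In the non-HFSCs 13 of 19 genes kept H3K27me3 (70.9% of all genes), 6 lost it and 6 gained it. The 6 that lost it were Hoxa3, Hoxa6, Hoxb5, Hoxb6, Hoxc6 and Hoxc8, from the middle of their clusters or, for Hoxa3, with an upstream start there. The 6 that gained it were Hoxc13, Hoxd9, Hoxd10, Hoxd11, Hoxd12 and Hoxd13, all from groups 9 to 13. The total of 19 was therefore equal at both stages while its members differed. The share kept, 68.4% of the Hox genes, was near that of all genes. Over all genes, 2663 had the mark in non-LC-HFSCs, of which 2468 also had it in non-EA-HFSCs. When each list was reduced to its 1909 best-scoring peaks, EA-HFSCs had 15 Hox genes with H3K27me3, LC-HFSCs 8, non-EA-HFSCs 8 and non-LC-HFSCs 16, and 2 of the 15, Hoxa13 and Hoxc12, were kept in LC-HFSCs, against 53.0% of all genes under this setting. Under this setting LC-HFSCs gained 6 genes, namely Hoxd1, Hoxd3, Hoxd8, Hoxd11, Hoxd12 and Hoxd13. In the non-HFSCs 6 were then kept, against 69.9%, while 2 were lost and 10 gained. All 9 HoxD genes dropped out of EA-HFSCs in that comparison, since the wide HoxD peaks ranked 1987 and 2216 by score.

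Both H3K4me3 and H3K27me3 lay near the start of 13 Hox genes in EA-HFSCs (7.90% of all genes), 3 in LC-HFSCs (1.01% of all genes), 12 in non-EA-HFSCs (9.48% of all genes) and 6 in non-LC-HFSCs (5.63% of all genes). Such a pair of peaks can come from different cells or alleles, since each list is from a population. The peaks of a pair also need not overlap. Those at Hoxd3 in LC-HFSCs were separated by 281 bp with neither mark, and those at Hoxc8 in EA-HFSCs by 742 bp. In EA-HFSCs the 13 were Hoxa7, Hoxb7, Hoxb8, Hoxb9, Hoxc8, Hoxc9, Hoxc12, Hoxc13, Hoxd1, Hoxd3, Hoxd8, Hoxd9 and Hoxd11, and in LC-HFSCs the 3 were Hoxd1, Hoxd3 and Hoxd8. Hoxd1, the most anterior gene of HoxD in the list, was the only gene with both marks in all 4 populations. Its H3K4me3 scores were 378.49 in EA-HFSCs, 70.1 in LC-HFSCs, 60.52 in non-EA-HFSCs and 143.5 in non-LC-HFSCs, and its H3K27me3 scores were 429.01, 226.16, 120.77 and 518.62. No Hox gene lacked both marks in EA-HFSCs (34.5% of all genes), whereas 15 did in LC-HFSCs (43.7% of all genes), 5 in non-EA-HFSCs (34.3% of all genes) and 3 in non-LC-HFSCs (37.1% of all genes). The LC-HFSC count, 39.5% of the 38, was near the share of all genes, and the other 3 were below it. The 15 of LC-HFSCs were Hoxa9, Hoxa10, Hoxa11, Hoxb4 to Hoxb8, Hoxb13, Hoxc9, Hoxc10, Hoxc11, Hoxd4, Hoxd9 and Hoxd10. Hoxc10 was without both in the 2 non-HFSC populations as well.

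The spans of the clusters, taken from the first to the last listed gene with 3000 bp on either side, were chr6:52109350-52213874 for HoxA, chr11:96052630-96232570 for HoxB, chr15:102748534-102870274 for HoxC and chr2:74503367-74606200 for HoxD, or 509.041 kb in all. H3K4me3 peaks covered 43.0% of these bases in EA-HFSCs, 25.1% in LC-HFSCs, 34.1% in non-EA-HFSCs and 25.0% in non-LC-HFSCs, where the same lists covered 1.41 to 2.11% of the assembly. H3K27me3 peaks covered 57.4%, 9.14%, 46.0% and 47.6%, against 0.278 to 2.57% of the assembly. H3K9me3 peaks covered 52.5% in EA-HFSCs, 0.682% in LC-HFSCs, 2.25% in non-EA-HFSCs and 6.07% in non-LC-HFSCs, against 1.43%, 0.0988%, 0.887% and 0.439% of the assembly. H3K4me3 cover was highest in HoxA and lowest in HoxD in each population, with 59.7% and 18.9% in EA-HFSCs and 42.8% and 0.609% in non-LC-HFSCs. With equal numbers of peaks per list, the order of the HFSCs turned for H3K4me3, to 23.4% of all 4 spans in EA-HFSCs against 25.1% in LC-HFSCs. H3K27me3 cover then became 35.1% in EA-HFSCs and 19.3% in non-EA-HFSCs.

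**Figure D3:**
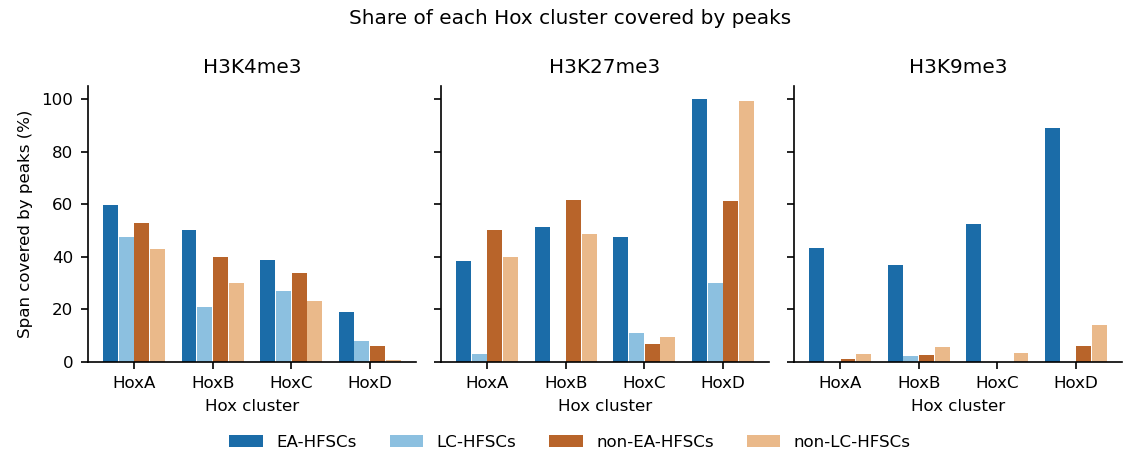
Percent of the span of each Hox cluster (horizontal axis) covered by peaks of each mark (panels), with 1 bar per cell population. HoxD is covered by H3K27me3 to 99.9% in EA-HFSCs and 99.2% in non-LC-HFSCs but to 29.8% in LC-HFSCs and 61.1% in non-EA-HFSCs, and H3K9me3 cover is high in EA-HFSCs alone.

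The Hox clusters held the widest peaks of several lists. By width, the peaks ranked 1 to 4 of the 25534 H3K27me3 peaks in EA-HFSCs were 2 in HoxD, of 66.918 and 65.837 kb, 1 in HoxC, of 55.994 kb, and 1 in HoxB, of 55.347 kb over Hoxb13. The widest H3K27me3 peak was a HoxB peak over Hoxb13 in non-EA-HFSCs, of 66.042 kb, and in non-LC-HFSCs, of 62.399 kb. The widest H3K4me3 peak of LC-HFSCs, 25.745 kb, covered the starts of Hoxa3, Hoxa5, Hoxa6 and Hoxa7, and the widest H3K9me3 peak of EA-HFSCs, 31.789 kb, lay in HoxA. Between 4 and 7 Hox peaks were among the widest 1% of each H3K4me3 list, and 8, 1, 5 and 8 among the widest 1% of the H3K27me3 lists of EA-HFSCs, LC-HFSCs and the 2 non-HFSC populations in turn. By score, the best-ranked H3K4me3 peak of the clusters stood at 99 to 155 in the 4 lists, with tied peaks all given the best rank of the tie. In EA-HFSCs and non-LC-HFSCs this was a tie at a score of 3100. A HoxC peak of non-LC-HFSCs with a score of 3039.84 ranked 1072.

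A border between the marks was defined as the change from a stretch of at least 1000 bp with H3K4me3 alone to the next such stretch with H3K27me3 alone. HoxA had 1 border in each of the 4 populations, always with H3K4me3 on the anterior side. In EA-HFSCs it spanned 3.754 kb, all under both marks, with its middle at 52175320 on chromosome 6. In non-LC-HFSCs it spanned 4.939 kb around 52174248, of which 4597 bp had both marks, and in non-EA-HFSCs 16.182 kb around 52169482, of which 15556 bp had both. In LC-HFSCs it was instead a stretch of 30.892 kb with neither mark, from the end of H3K4me3 at 52176680 to the only H3K27me3 peak of the cluster, which was 2.868 kb wide and ended at 52210440, within the Hoxa13 gene near its start. The 4 borders shared the 37 bp at chr6:52176681-52176717, 578 bp upstream of the first coding base of Hoxa9. They lay in the 5′ untranslated part of the exon of the Hoxa9-001 transcript that also holds this coding base.

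The anterior H3K4me3 domain of HoxA ended close to this point in every population. Among peaks with a score of at least 100, the last one ended 1093 bp upstream of the first coding base of Hoxa9 in EA-HFSCs, 577 bp in LC-HFSCs, 1469 bp in non-EA-HFSCs and 614 bp in non-LC-HFSCs, a range of 892 bp. This score limit left out 1 peak of 631 bp with a score of 63.27 in non-EA-HFSCs. Hoxa9 therefore carried H3K4me3 at its first coding base in all 4 populations, although at its annotated start, 4985 bp away, it had the mark in non-EA-HFSCs only. The H3K27me3 side of HoxA varied more, with 2.74% of the span covered in LC-HFSCs against 38.5% in EA-HFSCs, 50.1% in non-EA-HFSCs and 39.8% in non-LC-HFSCs.

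**Figure D4:**
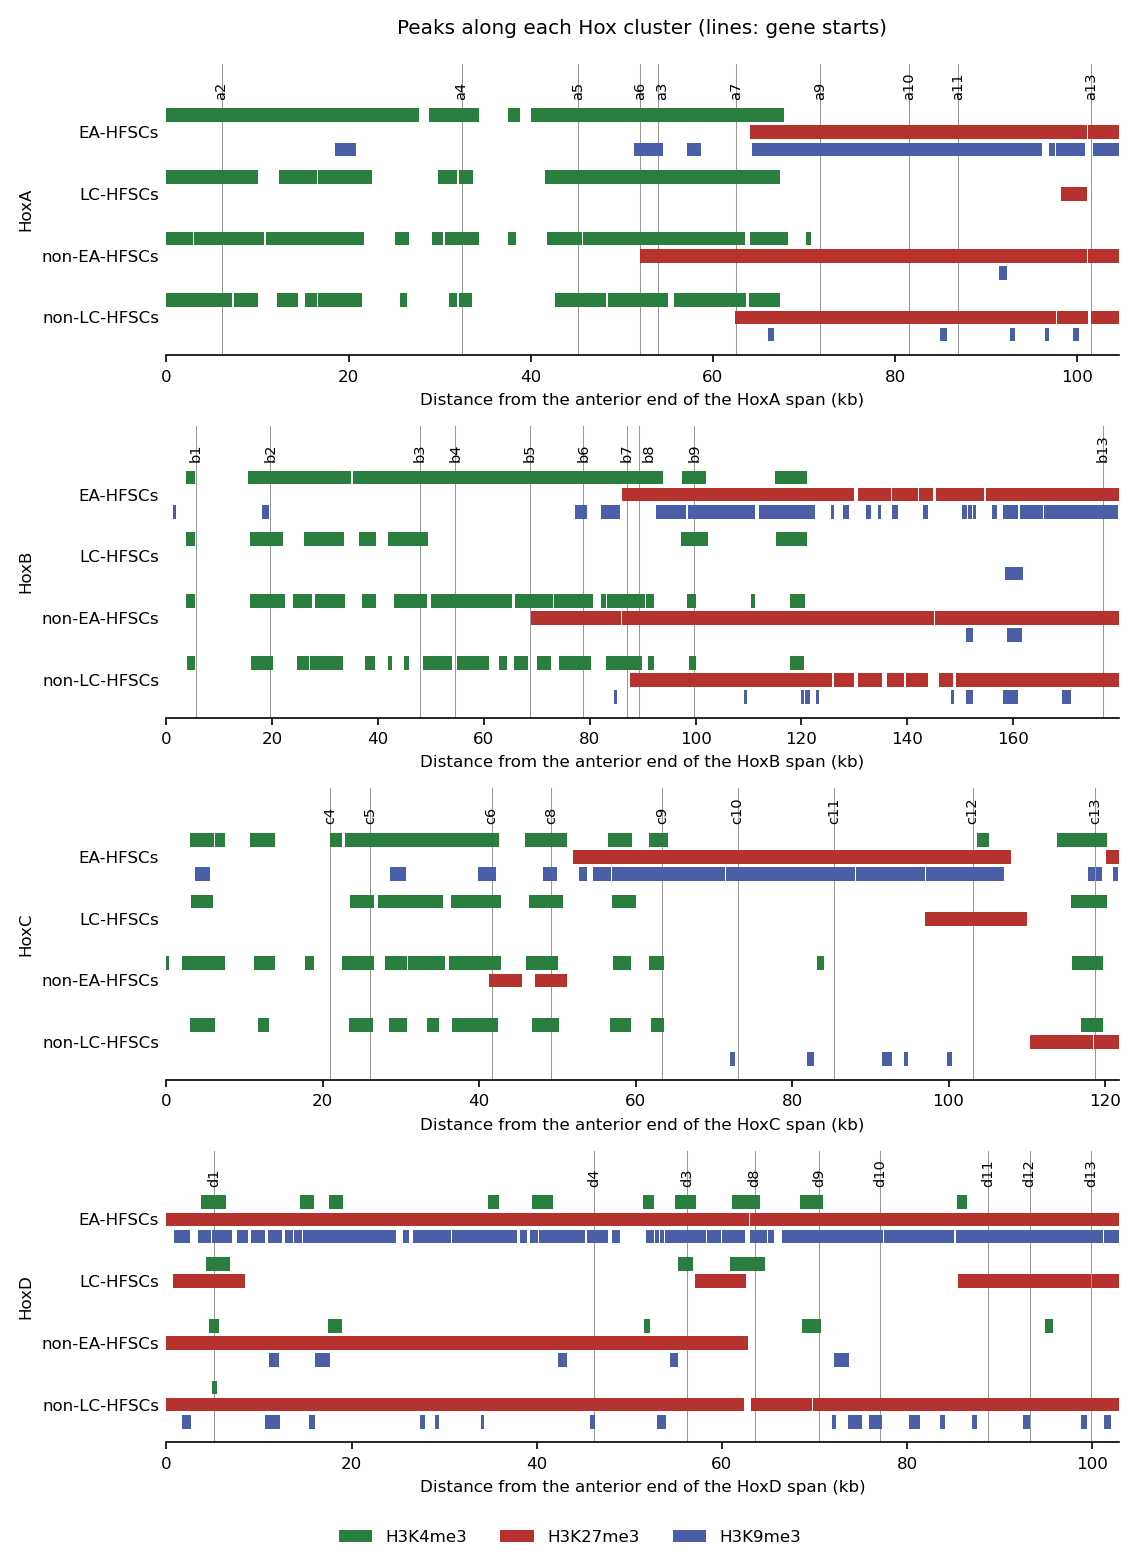
Peaks of H3K4me3 (green), H3K27me3 (red) and H3K9me3 (blue) along each Hox cluster in each cell population, against the distance in kb from the anterior end of the span, with thin lines at the annotated gene starts. In HoxA the main green domain ends near Hoxa9 in each population, while red begins before that point in 3 populations and only near Hoxa13 in LC-HFSCs, in HoxB green gives way to red near Hoxb8 in EA-HFSCs and non-LC-HFSCs, HoxD is red along almost all of its length in EA-HFSCs and non-LC-HFSCs, and a green block lies at Hoxc13 in each population.

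HoxB had 1 border in EA-HFSCs and in both non-HFSC populations, again with H3K4me3 on the anterior side, and none in LC-HFSCs, where the cluster held no H3K27me3 peak. Its middle was at 96142565 on chromosome 11 in EA-HFSCs and 96143836 in non-LC-HFSCs, on either side of the start of Hoxb8 at 96143219, and at 96157887 in non-EA-HFSCs. Both marks overlapped over 7.808 kb in EA-HFSCs, 11393 bp in non-EA-HFSCs and 2.373 kb in non-LC-HFSCs. Hoxb9, posterior to the border in EA-HFSCs and non-LC-HFSCs, still had an H3K4me3 peak in all 4 populations, with scores of 592.21, 208.58, 178.54 and 167.08. Hoxb13, which stands far from the rest of its cluster, had H3K27me3 with scores of 706.97 in EA-HFSCs, 556.35 in non-EA-HFSCs and 341.13 in non-LC-HFSCs and no peak of any of the 3 marks within 3000 bp in LC-HFSCs.

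In HoxC the anterior side, Hoxc4 to Hoxc8, carried H3K4me3 in all 4 populations, and the posterior side differed between them. EA-HFSCs had an H3K27me3 peak of 55.994 kb at chr15:102762331-102818324 over the starts of Hoxc9, Hoxc10, Hoxc11 and Hoxc12. LC-HFSCs had a peak of 13.017 kb at chr15:102760253-102773269, over Hoxc12 alone, and the non-HFSCs had no H3K27me3 at these 4 genes. HoxC was covered by H3K27me3 to 47.3% in EA-HFSCs, 10.7% in LC-HFSCs, 6.82% in non-EA-HFSCs and 9.21% in non-LC-HFSCs. Hoxc9, Hoxc10 and Hoxc11 were the only Hox genes with H3K27me3 in EA-HFSCs and in no other population, and Hoxc12 the only one with it in both HFSC populations and in neither non-HFSC population. By the definition above HoxC had 3 borders in EA-HFSCs, 2 in LC-HFSCs, 4 in non-EA-HFSCs and 1 in non-LC-HFSCs. The 4 of non-EA-HFSCs came from narrow H3K27me3 peaks at Hoxc8 and Hoxc6, with scores of 68.11 and 80.16, and none of them was left among peaks scoring 100 or more.

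Hoxc13 lay outside this domain. Its H3K4me3 peak was 6.468 kb wide in EA-HFSCs, 4.596 kb in LC-HFSCs, 3.896 kb in non-EA-HFSCs and 2.883 kb in non-LC-HFSCs, with scores of 3100, 1040.2, 1173.12 and 736.9. In EA-HFSCs it stood between H3K27me3 peaks on either side, which overlapped it by 124 bp at one edge and left 5.9 kb with neither mark on the other. In non-LC-HFSCs H3K27me3 peaks of 30.967 and 8.083 kb lay over the same site and left a gap of 119 bp at chr15:102751669-102751787, which lay just downstream of the Hoxc13 start at 102751534 and was covered by H3K4me3. In LC-HFSCs and non-EA-HFSCs no H3K27me3 peak lay within 3000 bp of the Hoxc13 start. The sequence upstream of the start, shown above, was under H3K4me3 in each population.

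HoxD had the least H3K4me3 cover of the clusters in every population and the most H3K27me3 cover in all but non-EA-HFSCs, where HoxB had 61.5% and HoxD 61.1%. With equal numbers of peaks per list, however, no H3K27me3 peak was left in HoxD in EA-HFSCs or non-EA-HFSCs, and cover stayed at 29.8% in LC-HFSCs and 99.2% in non-LC-HFSCs. In EA-HFSCs H3K27me3 covered 99.9% of it in 2 peaks, and the 115 bp between them, at chr2:74543202-74543316 inside Hoxd8, lay under H3K4me3. The edge of H3K27me3 fell near this point in every population. A peak began 645 bp downstream of the annotated Hoxd8 start in EA-HFSCs, 895 bp in LC-HFSCs, 736 bp in non-EA-HFSCs and 1180 bp in non-LC-HFSCs. In non-EA-HFSCs it was the only edge within the span, since a single peak of 65.724 kb ran from there past Hoxd1 and the posterior genes Hoxd9 to Hoxd13 had no H3K27me3. In LC-HFSCs the mark was called in the neighbourhoods of Hoxd8 and Hoxd3, of Hoxd1, and of Hoxd11 to Hoxd13, which gave 4 borders, and none at scores of 100 or more. EA-HFSCs and non-LC-HFSCs had no border in HoxD, and non-EA-HFSCs had 1. Near the Hoxd13 start the H3K27me3 score was 384.05 in EA-HFSCs, 330.28 in LC-HFSCs and 1215.15 in non-LC-HFSCs, with no peak in non-EA-HFSCs. Hoxd13 and Hoxa13, which pattern the limbs and the genital region, both kept H3K27me3 in LC-HFSCs, the latter with a score of 106.23, and Hoxb13 and Hoxc13 did not.

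In HoxA, HoxB and HoxC of EA-HFSCs H3K9me3 lay mainly where H3K27me3 lay. Of the 29 Hox genes with H3K9me3 in EA-HFSCs, 23 also had H3K27me3, and 12 had all 3 marks. The 23 included all 16 genes of groups 9 to 13, a block in which every gene had H3K27me3. In EA-HFSCs H3K9me3 lay at 45.2% of all genes, and H3K27me3 at 24 Hox genes. The share of all genes with such combinations was not counted in any population, so these counts are not read as a trait of the Hox genes. Of the H3K9me3 bases of EA-HFSCs, 84.7% were also under H3K27me3 in HoxA, 88.6% in HoxB, 84.7% in HoxC and 100% in HoxD. H3K27me3 itself covered 38.5%, 51.1%, 47.3% and 99.9% of these spans in turn, so the HoxD value followed from its cover. H3K4me3 lay on 23.1% of the H3K9me3 bases in HoxA, 28.1% in HoxB and 25.9% in HoxC, against cover of 59.7%, 50.0% and 38.8%. In HoxD it lay on 20.1% of them, near its cover of 18.9%. The 14 genes with H3K9me3 in non-LC-HFSCs included 11 with H3K27me3, and the 3 without were Hoxc10, Hoxc11 and Hoxc12. Of the 14, 1 remained with a score of at least 100, Hoxd10 at 164.63, and 5 with a window of 1000 bp, whereas 23 of the 29 remained in EA-HFSCs at that score. In non-EA-HFSCs, where Hoxd3, Hoxd4 and Hoxd9 had the mark, none remained. In LC-HFSCs 1 peak of 3.471 kb was called in the clusters, in HoxB away from any Hox start.

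The genes for the partners of Hox proteins mostly carried H3K4me3, a mark that also lay at 53.9 to 60.4% of all genes, depending on the population. H3K27me3 lay at 3.39 to 15.6% of all genes. Of 9 genes for TALE homeodomain cofactors (the Pbx, Meis and Pknox families, which bind DNA together with Hox proteins), 9 carried H3K4me3 in EA-HFSCs, 7 in LC-HFSCs, 9 in non-EA-HFSCs and 9 in non-LC-HFSCs, and 2, 0, 3 and 3 carried H3K27me3. Those without H3K4me3 in LC-HFSCs were Pbx4 and Meis3. Of the 5 linked or upstream homeobox genes (Evx1 and Evx2, next to HoxA and HoxD, and 3 genes of the Cdx family, which regulate Hox genes), H3K27me3 lay at 5 in EA-HFSCs, 2 in LC-HFSCs, 4 in non-EA-HFSCs and 5 in non-LC-HFSCs, and H3K4me3 only at Evx1 in EA-HFSCs, with a score of 54.96. Evx2 had its H3K27me3 from the same wide peak as Hoxd13 in EA-HFSCs and non-LC-HFSCs and, like Hoxd13, none in non-EA-HFSCs.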

How the data were processed

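H3K4me3, H3K27me3 and H3K9me3 ChIP-seq was performed on 4 sorted cell populations, with IgG as control, giving 16 samples and 12 peak lists. The authors aligned reads to mm9 with Bowtie2, pooled the reads of replicates, and called peaks with MACS against IgG, at p-value thresholds of 1e-05 (H3K4me3) and 0.0001 (the other marks), keeping at most 2 duplicates. The submitters' processing notes also name Trimmomatic 0.22, HOMER and Cuffdiff. Each deposited list gives peak positions with a score, 10 times minus log10 of its p-value. Pooling leaves 1 list per population and mark, so no test was run. The lists give no read depth. According to the study's methods, H3K4me3 was sequenced close to saturation, and H3K27me3 and H3K9me3 were not. LC-HFSCs had more reads than EA-HFSCs, and the study states that their lower peak numbers did not come from fewer reads. In general, the number of called peaks can differ with depth and with signal over background.

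Here, peaks were intersected (minimum overlap 1 bp) with 3000 bp to either side of each gene start in GENCODE vM1, with the cluster spans, and with each other, using Python 3.11.15, numpy 2.4.6, bedtools 2.31.1 and matplotlib 3.10.9. The intersections were checked on simulated peaks. The mm9 genome supplied the sequences upstream of the starts, and microRNA sequences are from RefSeq (GRCm38.p6). All 38 Hox genes could be named. Values are given for those that differed between HFSCs and non-HFSCs, had both marks, flanked a border or belonged to paralogue group 13. The Hox genes, the gene lists and the alternatives were chosen with earlier results of these data known. Alternatives were score thresholds of 50 and 100, equal numbers of peaks, windows of 1000 and 2500 bp, other gene starts, a 500 bp overlap, other spans and border segments, and merged peaks. The widest peaks were recounted on the autosomes alone. The first coding base and the cover at a score of 50 were added after the data were seen.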

Additional observations from a re-analysis of the deposited data

Results flagged for a closer look

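H3K27me3 cover of HoxC and HoxD differed between anagen and catagen in opposite directions in HFSCs and non-HFSCs, and this difference was not tested, since each value comes from 1 list. The covered share of HoxC was 47.3% in EA-HFSCs, 10.7% in LC-HFSCs, 6.82% in non-EA-HFSCs and 9.21% in non-LC-HFSCs. In HoxD it was 99.9% in EA-HFSCs, 29.8% in LC-HFSCs, 61.1% in non-EA-HFSCs and 99.2% in non-LC-HFSCs. With equal numbers of peaks per list the order of the HFSCs turned in HoxD, with 0% in EA-HFSCs against 29.8% in LC-HFSCs, and the non-HFSCs had 0% and 99.2%, so the directions were no longer opposite. In HoxC they remained so under this setting, with 47.3% and 10.7% in the HFSCs and 0% and 9.21% in the non-HFSCs. The HoxD peaks of non-LC-HFSCs reached the posterior genes Hoxd9 to Hoxd13, which had no peak in non-EA-HFSCs.

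H3K9me3 also differed in opposite directions in each cluster, again not tested. Cover of HoxA was 43.4% in EA-HFSCs, 0% in LC-HFSCs, 0.832% in non-EA-HFSCs and 2.89% in non-LC-HFSCs. For HoxB the values were 36.9%, 1.93%, 2.47% and 5.45% in the same order. For HoxC they were 52.3%, 0%, 0% and 3.16%, and for HoxD 89.2%, 0%, 5.99% and 13.8%. The number of Hox genes with H3K9me3 was 29 in EA-HFSCs, 0 in LC-HFSCs, 3 in non-EA-HFSCs and 14 in non-LC-HFSCs. The shares of all genes, 45.2%, 0.295%, 2.80% and 11.6%, ran in the same directions. With equal numbers of peaks, HoxA had no H3K9me3 in either non-HFSC population. Over all peaks, the H3K9me3 lists held 42277, 1414, 17873 and 18236 peaks, and the part of the list length in these values was not tested.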

How the results depend on the processing

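Of 252 values recomputed under the alternatives, 228 stayed within 1.5 times the reported value and 24 did not. None of the latter came from the ranks, for which only the count of Hox peaks among the widest 1% was redone, without the sex chromosomes. All Hox clusters lie on autosomes, so this setting could hardly move that count. A score of at least 50 removed no H3K4me3 peak, and equal numbers of peaks left the LC-HFSC lists whole, so those values could not move. Keeping an equal number of top-scoring peaks per mark moved the most. The number of Hox genes became 14 for H3K4me3 in EA-HFSCs, which put it below LC-HFSCs at 18, became 15 for H3K27me3 in EA-HFSCs and 8 in non-EA-HFSCs, and became 0 for H3K9me3 in non-EA-HFSCs and 2 in non-LC-HFSCs. Genes keeping H3K27me3 became 2 in HFSCs and 6 in non-HFSCs. Cover became 23.4% for H3K4me3 in EA-HFSCs, 35.1% for H3K27me3 in EA-HFSCs and 19.3% in non-EA-HFSCs, and 0.592% and 2.50% for H3K9me3 in non-EA-HFSCs and their catagen counterpart. H3K27me3 cover of HoxD in EA-HFSCs became 0%, below LC-HFSCs at 29.8%. Peaks of low score, the wide HoxA, HoxB and HoxD peaks of EA-HFSCs among them, are dropped by the construction of this setting.

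H3K9me3 in the non-HFSCs rested on low scores. Genes with it in anagen and catagen non-HFSCs numbered 1 and 7 at a score of at least 50, 0 and 1 at 100, and 1 and 5 with a window of 1000 bp, and cover at 100 was 1.18% and 2.18%. Borders in HoxC of non-EA-HFSCs numbered 2 with segments of 2000 bp and 0 at a score of at least 100, and those in HoxD of LC-HFSCs likewise 2 and 0. The numbers of borders in HoxA and HoxB stayed within 1.5 times under each alternative.

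No paired analysis was possible because the reads of replicates were pooled before peaks were called. Read depth is unknown from the lists, so an absent peak was not detectable at that depth and is not shown to be an absent mark.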
